A study of Mus musculus with 2 samples.

Results

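The genes described here are 10 members of the bone morphogenetic protein (BMP) pathway, the ligand genes Bmp2 to Bmp7 and the response genes Id1 to Id4, out of 22054 genes in the tables. They were chosen by gene symbol, with earlier results of these data known, and each was listed as 1 transcript row in both libraries. RNA was sequenced from lower molar tooth mesenchyme that had been cut by laser capture from frozen heads of mouse embryos at embryonic day 14.5. Control embryos were heterozygous for Osr2 (Osr2+/-, 1 library) and mutant embryos were homozygous for the mutated allele (Osr2-/-, 1 library), all on a mixed background. Both groups therefore carried at least 1 mutated Osr2 copy, and no wild-type library was analysed here, although the series title names wild type. The design text gives tissue of 3 control and mutant pairs as pooled before RNA extraction, so each library averages several embryos and there is no replicate. All differences below describe these 2 libraries, and none has a replicate check.

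BMPs are secreted ligands that bind pairs of serine/threonine kinase receptors. The receptors phosphorylate Smad1, Smad5 and Smad9, which enter the nucleus with Smad4 and bind regulatory DNA. Id genes are classic early targets of this route, and Id proteins hold basic helix-loop-helix (bHLH) factors away from DNA. In tooth development, Bmp4 from the mesenchyme acts with the transcription factor Msx1 to carry the tooth from bud to cap, and Osr2 is known to restrain tooth formation on the tongue side of the molars.

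Levels are in RPKM, the reads per transcript length and sequencing depth, as the authors deposited them. Brackets hold 95% counting intervals from approximate read numbers, and they cover counting error only. Ratio intervals are scaled by all mapped reads and were not recomputed on another scale, so one that ends close to 1 depends on that scaling. The control library was the shallower, at about 5.38 M mapped reads where the mutant had 34.3 M, and 9136 against 7273 of 28107 transcript rows were listed at 0. About 1.45 M control reads and 7.88 M mutant reads lay on the listed transcripts. Osr2 was at 38.7 RPKM in the control library and 9.16 RPKM in the mutant library, a ratio of 0.236 (0.206 to 0.271). The sources used here do not give which exons the mutated allele lacks, so reads on Osr2 in the mutant do not by themselves go against the label. The Y-linked gene Ddx3y was at 3.28 RPKM in the control library and listed at 0 in the mutant, and Xist, made in female cells, was at 5.21 and 30.0 RPKM; both genes were chosen after their values were seen. The sources used here do not give embryo sex, and sex, sequencing lane and genotype cannot be told apart. In bulk tissue, fewer cells of a type and less RNA per cell cannot be told apart either.

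Of the Id genes, Id2 and Id3 gave nearly the same ratio between the libraries and Id4 did not, so the 250 bases before the start of these 3 genes are shown for comparison. They come from the RefSeq promoter table (build GRCm38.p6, while the expression files use mm9) and run 5′ to 3′ on the strand of the gene. Of the 10 members, 6 had an entry there (Bmp4, Bmp5, Bmp6, Id2, Id3 and Id4), and Bmp2, Bmp3, Bmp7 and Id1 did not. Capitals mark GGCGCC, a GC-rich element of BMP Smads, or CAGAC with its reverse complement GTCTG, the core of a Smad-binding element; both strands were searched and no matches overlapped in these windows.
Id2 (chr12:25096093-25096342, minus strand): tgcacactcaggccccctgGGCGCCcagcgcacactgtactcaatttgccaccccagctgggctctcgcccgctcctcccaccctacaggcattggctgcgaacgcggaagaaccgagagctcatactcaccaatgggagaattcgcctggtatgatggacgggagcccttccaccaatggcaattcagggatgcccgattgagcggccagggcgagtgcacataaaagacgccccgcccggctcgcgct
Id3 (chr4:136143572-136143821, plus strand): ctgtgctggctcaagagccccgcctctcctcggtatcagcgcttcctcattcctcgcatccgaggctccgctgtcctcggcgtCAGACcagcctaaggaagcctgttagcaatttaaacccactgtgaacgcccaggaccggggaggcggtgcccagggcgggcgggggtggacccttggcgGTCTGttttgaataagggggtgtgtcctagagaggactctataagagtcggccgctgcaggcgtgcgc
Id4 (chr13:48260866-48261115, plus strand): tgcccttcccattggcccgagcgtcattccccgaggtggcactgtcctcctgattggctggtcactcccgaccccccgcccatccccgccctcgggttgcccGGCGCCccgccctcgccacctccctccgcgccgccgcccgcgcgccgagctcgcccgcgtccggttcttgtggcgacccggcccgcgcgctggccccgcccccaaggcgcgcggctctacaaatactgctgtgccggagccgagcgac
The Id2 window held 1 GGCGCC, 231 bases before the start, and the Id4 window 1 GGCGCC, 148 bases before it. The Id3 window held no GGCGCC and 2 CAGAC cores, at 167 and 68 bases. Across all 32851 windows of this length in the table, 9.59% held GGCGCC and 42.2% held CAGAC. The Bmp4 window held neither motif, and the Bmp5 and Bmp6 windows held 1 CAGAC core each, at 134 and 119 bases. All 3 Id windows were rich in G and C, at 62.8% for Id2, 62.8% for Id3 and 75.6% for Id4, against a median of 52.4% over all windows.

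In the ligand group, Bmp2 and Bmp3 were higher in the mutant library, and Bmp4 and Bmp6 differed by less than counting error. Bmp4, the main mesenchymal BMP of the tooth bud (mm9 chr14:47003196-47010274), was at 10.4 RPKM (8.52 to 12.5) in the control library and 11.0 RPKM (10.3 to 11.9) in the mutant. It was the highest of the ligand genes in both libraries, and its ratio of 1.07 (0.872 to 1.31) had an interval on both sides of 1. A predicted gene, Gm15217, overlaps its locus and was at 0.80 RPKM in the control library and 0.291 RPKM in the mutant, on about 3 and 7 reads, and reads of overlapping genes may be split between them.

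Bmp2, a ligand of bone formation and of the enamel knot, the epithelial signalling centre of the tooth (mm9 chr2:133378935-133388621), was at 2.19 RPKM (1.47 to 3.13) in the control. In the mutant it was at 5.14 RPKM (4.68 to 5.65), 2.35-fold higher (1.62 to 3.53). The 2 level intervals did not overlap. The control value rests on about 30 reads and the mutant value on about 444. On the scale used for all genes, log2 of mutant RPKM + 1 over control RPKM + 1, its ratio was 0.95, the 95th highest of 9779 genes that reached 1 RPKM in either library (the genes called tested below).

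Bmp3, an atypical member that counters bone-forming BMP signals (mm9 chr5:99283458-99309979), was at 2.14 RPKM (1.5 to 2.97) in the control library and 4.25 RPKM (3.87 to 4.66) in the mutant. It was 1.98-fold higher in the mutant (1.41 to 2.87), again with separate level intervals, on about 36 and 454 reads. Its log2 ratio was 0.74, the 151st highest of the genes tested. Bmp2 and Bmp3 stood at nearly the same level in the control. In the mutant Bmp2 was the higher, but the level intervals were only just separate. That of Bmp2 began at 4.68 RPKM and that of Bmp3 ended at 4.66 RPKM. These bounds depend on the assumed read length, and their separation was not rechecked with other read lengths.

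Bmp5, Bmp6 and Bmp7 are closely related ligands that form a subgroup of the family. Bmp6 (mm9 chr13:38437585-38591597) was at 5.56 RPKM (4.35 to 7.0) in the control library and 5.17 RPKM (4.69 to 5.68) in the mutant, a ratio of 0.929 (0.723 to 1.21). It was the second-ranking ligand in the control library and level with Bmp2 in the mutant. Bmp7 (mm9 chr2:172695189-172765794) was at 1.05 RPKM (0.527 to 1.88) in the control library and 1.49 RPKM (1.21 to 1.81) in the mutant. Its ratio was 1.42 (0.762 to 2.92) on about 11 control reads, so a difference of this size was not detectable at this depth. Bmp5 (mm9 chr9:75623172-75746824) was listed at 0 in the control library and at 0.111 RPKM (0.0522 to 0.206) in the mutant, on about 10 reads. A transcript of this length with 3 reads in the control would be at 0.221 RPKM, above the mutant level, so no difference of Bmp5 was detectable and it stayed below the minimum of 1 RPKM.

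Reads of near-identical genes can be assigned to the wrong one, so shared sequence was measured. The longest identical run between the coding sequences of any 2 members, in transcripts of GENCODE M21 (GRCm38), was in Bmp6 and Bmp7, at coding base 1060 of Bmp6 and 820 of Bmp7, counted from the start codon, followed by those of Bmp5 with each of them.
Bmp6 and Bmp7, 25 bases: CCCTTCATGGTGGCCTTCTTCAAGG
Bmp5 and Bmp7, 23 bases: TTCATGGTGGCCTTCTTCAAGGC
Id1 and Id4, 17 bases: GTGGAGATCCTGCAGCA
These whole runs are in capitals because every base is shared, and the Id1 and Id4 run, at coding bases 253 and 271, was the longest among the Id genes. All were shorter than the 44.3 bases taken here as 1 read. Over whole GENCODE transcripts, no run of 36 bases in Bmp2, Bmp6, Id1, Id3 or Id4 occurred in a transcript of another gene. Only exact matches were counted. These transcripts can be longer than the quantified rows, as for Id4, at 3849 against 1660 bases. The share was 0.60% for Bmp3, 0.645% for Bmp4, 1.11% for Bmp5, 0.738% for Bmp7 and 2.35% for Id2, whose only match was the predicted gene Gm6175.

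**Figure D1:**
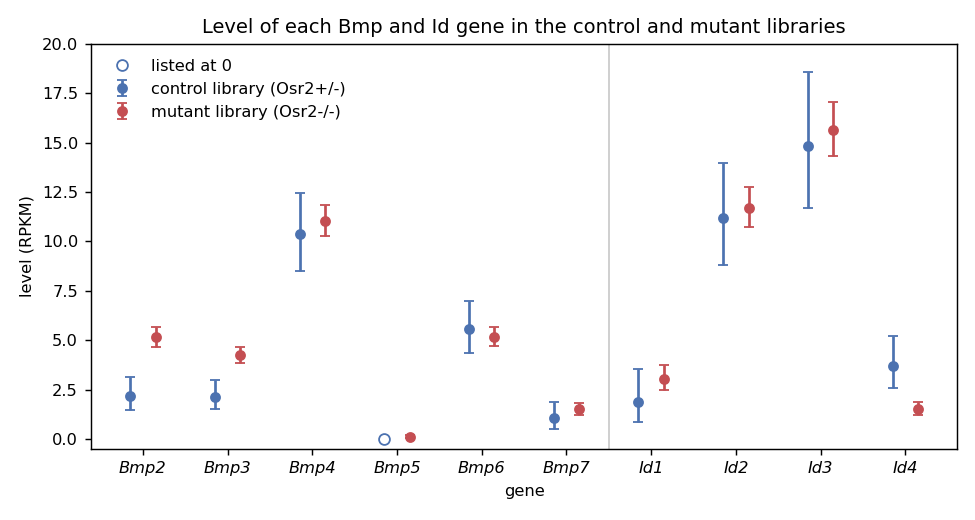
Level in RPKM (y axis) of the 6 Bmp and 4 Id genes (x axis) in the control library (blue) and the mutant library (red), with 95% counting intervals as bars and an open circle for Bmp5, listed at 0 in the control. Bmp2 and Bmp3 sit higher in the mutant with separate intervals, Id4 sits lower, and Bmp4, Bmp6, Id2 and Id3 overlap.

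Among the 4 Id genes, Id4 was lower in the mutant library, while Id2 and Id3, the most abundant, were nearly equal. Id3 (mm9 chr4:135699737-135701307) was at 14.9 RPKM (11.7 to 18.6) in the control library and 15.6 RPKM (14.3 to 17.1) in the mutant, a ratio of 1.05 (0.826 to 1.36). Id2 (mm9 chr12:25778664-25780957) was at 11.2 RPKM (8.81 to 14.0) in the control library and 11.7 RPKM (10.7 to 12.8) in the mutant, a ratio of 1.05 (0.823 to 1.35). Both intervals include 1, and a 2-fold difference in either direction lies outside them.

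Id1, often taken as the most direct readout of BMP receptor activity (mm9 chr2:152562010-152563146), was at 1.87 RPKM (0.862 to 3.53) in the control library and 3.06 RPKM (2.48 to 3.74) in the mutant. The 1.64-fold ratio had an interval of 0.831 to 3.66, since the control value rests on about 9 reads, and the level intervals overlapped. On the log2 scale its ratio was 0.50, below the 1.5-fold threshold.

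Id4, which is prominent in neural and bone-forming cells and does not always follow the other Id genes (mm9 chr13:48356796-48359405), was at 3.71 RPKM (2.56 to 5.21) in the control library and 1.51 RPKM (1.21 to 1.87) in the mutant. It was 2.45-fold lower in the mutant (1.59 to 3.70), with separate level intervals, on about 33 and 86 reads. Its log2 ratio of -0.91 was the 105th lowest of the genes tested. Id1 and Id4 thus exchanged places: Id4 was the higher in the control, with overlapping intervals, and Id1 was the higher in the mutant, with separate ones.

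**Figure D2:**
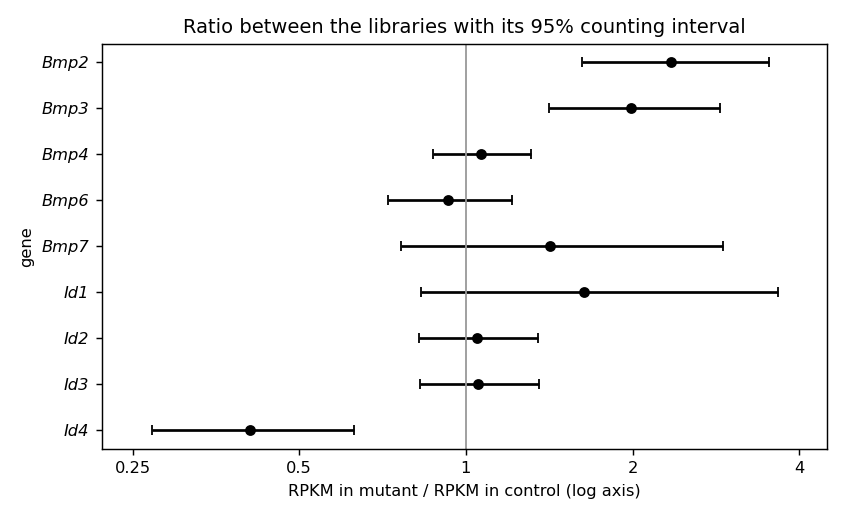
Mutant over control RPKM (x axis, log scale) for the 9 members tested (y axis), as points with 95% counting intervals as bars and a line at 1. The intervals of Bmp2 and Bmp3 lie above 1, that of Id4 below 1, and the other 6 include 1.

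Counted over the members, 2 of 9 tested were higher by 1.5-fold or more in the mutant on the log2 scale (Bmp2 and Bmp3), where 2.55% of all genes tested were. At least 1.5-fold lower was 1 member (Id4), against 3.57% of all genes. None was 2-fold higher or lower on that scale, against 0.89% and 0.798% of all genes; the added 1 RPKM shrinks the plain folds of Bmp2 and Id4 below 2. The counting interval lay above 1 for 2 members, against 7.84% of all genes, and below 1 for 1 member, against 15.9%. The median log2 ratio was 0.28 for the 5 ligand genes tested and 0.07 for the 4 Id genes, beside -0.05 for all genes, whose 5th and 95th percentiles were -0.52 and 0.44. Above 0 were 7 members and below it 2, against 4156 and 5623 of all genes.

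**Figure D3:**
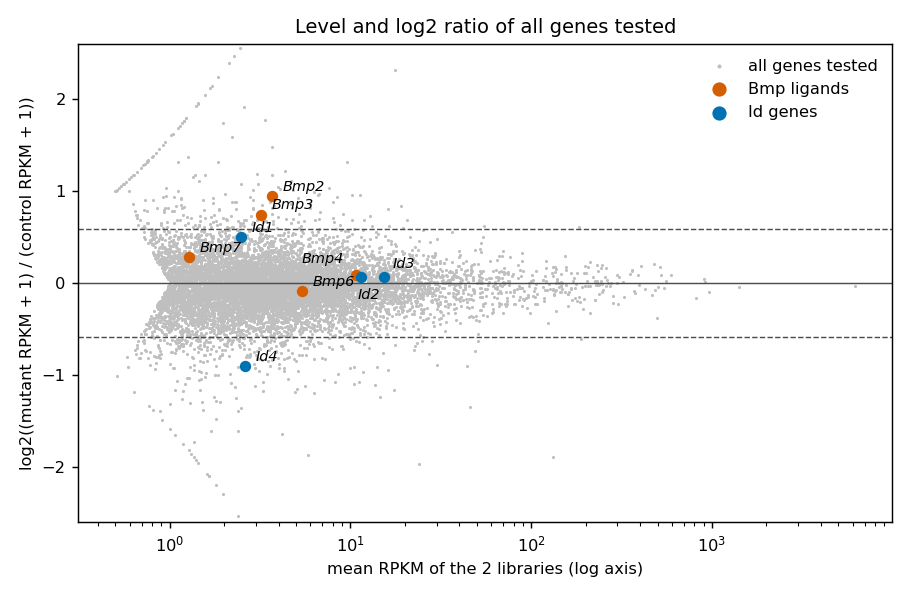
Log2 of mutant RPKM + 1 over control RPKM + 1 (y axis) against the mean RPKM of the 2 libraries (x axis, log scale) for 9779 genes tested (grey), with Bmp ligands in orange, Id genes in blue and dashed lines at 1.5-fold; 22 genes lie beyond the y axis. Bmp2 and Bmp3 lie above the upper line, Id4 below the lower one, and the other members lie between them.

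In order of level, Id3, Id2 and Bmp4 led in both libraries. In the control, the intervals of these 3 overlapped from one to the next, Bmp4 was separate from Bmp6, and from Bmp6 through Id4, Bmp2, Bmp3, Id1 to Bmp7 each gene overlapped the next. In the deeper mutant library Id3 was separate from Id2, Bmp4 from Bmp6, Bmp2 narrowly from Bmp3, Bmp3 from Id1 and Id1 from Id4. Neighbours that overlapped there were Id2 with Bmp4, Bmp6 with Bmp2, and Id4 with Bmp7. Overlap between genes was not rechecked with other read lengths. The summed ligand level was 21.3 RPKM in the control library and 27.2 RPKM in the mutant, 1.28 times as much. Within that sum, Bmp4 made up 48.6% in the control library and 40.6% in the mutant, and Bmp6 26.1% and 19.0%. Bmp2 made up 10.3% and 18.9%, and Bmp3 10.1% and 15.6%, so most of the added ligand RNA was of these 2 genes. The summed Id level was 31.6 and 31.9 RPKM, giving a ratio of 1.01, while the share of Id4 in it was 11.7% in the control library and 4.75% in the mutant and that of Id1 5.91% and 9.58%.

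Of 5 receptor genes tested, none was 1.5-fold apart on the log2 scale, and 2 (Bmpr1a and Acvrl1) had a counting interval below 1. Over all genes tested, 2.55% were 1.5-fold higher and 3.57% lower, and 15.9% had an interval below 1 and 7.84% above 1. The same shares stand beside the counts of the pathway lists that follow. Bmpr1a, the main type I receptor of Bmp2 and Bmp4, was at 15.2 RPKM in the control library and 13.5 RPKM in the mutant, a ratio of 0.893 (0.807 to 0.990). Its log2 ratio was -0.15, and -0.02 with each library scaled to the same sum over the listed transcripts. Bmpr2, the type II receptor, was at 14.7 and 14.0 RPKM, giving a ratio of 0.953 (0.839 to 1.09). Acvr1, which binds the Bmp5, Bmp6 and Bmp7 subgroup, was at 4.73 and 5.01 RPKM, and Acvr2a at 4.41 and 4.40 RPKM. Acvrl1, a receptor of blood vessel cells, was at 1.42 and 0.763 RPKM, giving a ratio of 0.539 (0.35 to 0.856). The median log2 ratio of the receptors was -0.06, and 0.07 with each library scaled to the same sum over the listed transcripts, where all 7 receptor genes of the list passed the minimum. The endothelial markers, for comparison, summed to 34.4 RPKM in the control library and 28.7 RPKM in the mutant. Below 0 were 8 of 9 tested, against 5623 of 9779 of all genes. None of the endothelial markers was at 0 in either library. Their part in the Acvrl1 value was not tested.

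The Smads that carry the signal were also close. Smad1 was at 6.76 and 7.58 RPKM in control and mutant, Smad5 at 11.0 and 12.1 RPKM, and Smad9 at 1.44 and 1.72 RPKM. Smad4, their common partner, was at 12.1 and 10.9 RPKM, giving a ratio of 0.903 (0.781 to 1.05). No gene of the 7 in this list was 1.5-fold apart, the median was 0.12, and only the zinc-finger cofactor Zfp423, at 4.77 and 3.59 RPKM, had an interval that excluded 1 (0.620 to 0.919). When each gene was taken from its highest row alone, the log2 ratio of Smad5 was -0.46 instead of 0.13 and the median of the list -0.13.

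Among inhibitors that act inside the cell or at its membrane, the inhibitory Smads differed from each other. Smad7, which blocks both BMP and TGF-beta receptors, was at 6.48 RPKM in the control library and 4.14 RPKM in the mutant, a ratio of 0.639 (0.535 to 0.767). Smad6, which acts mainly on BMP receptors and is itself a BMP target, was at 3.21 and 3.34 RPKM, giving a ratio of 1.04 (0.774 to 1.42). Bambi, a decoy receptor, was at 0.746 and 1.26 RPKM, giving a ratio of 1.69 (1.07 to 2.81) on about 20 control reads. On the log2 scale none of the 5 was 1.5-fold apart, and the median was 0.04. Smurf1, a ubiquitin ligase for BMP Smads, had a log2 ratio of -0.08 with its rows summed and -0.69 from its highest row alone, which is past 1.5-fold.

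Extracellular antagonists and modulators were more often lower than higher in the mutant library, with 10 of 14 tested below 0 and a median of -0.19. Over all genes tested, 5623 of 9779 were below 0 and the median was -0.05. At least 1.5-fold lower were 4 and higher 2, where 3.57% and 2.55% of all genes tested were. The counting interval lay below 1 for 7 and above 1 for 3, against 15.9% and 7.84% of all genes. The most abundant were Sostdc1, an antagonist that limits tooth number, at 55.6 RPKM in the control library and 43.3 RPKM in the mutant (ratio 0.778, 0.708 to 0.857), and Fstl1, at 49.5 and 43.8 RPKM (0.886, 0.827 to 0.949). The log2 ratios of Sostdc1 and Fstl1 were -0.35 and -0.17. With each library scaled to the same sum they were -0.22 and -0.04. Crim1, a membrane protein that binds BMPs, was at 4.96 and 2.19 RPKM, 2.26-fold lower (1.88 to 2.71). Nbl1, a secreted antagonist, was at 5.95 and 2.66 RPKM, 2.23-fold lower (1.62 to 3.04). Grem1, an antagonist of Bmp2 and Bmp4, was at 2.12 and 0.957 RPKM, 2.22-fold lower (1.24 to 3.81), on about 19 and 54 reads.

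Tll1, a protease that cleaves the antagonist chordin, was at 2.04 and 1.02 RPKM, giving a ratio of 0.50 (0.366 to 0.691). In the other direction, Bmper, a modulator that binds BMPs outside the cell, was at 0.902 and 2.04 RPKM, 2.26-fold higher (1.41 to 3.85). Fstl3 was at 0.206 RPKM, on about 2 control reads, and 1.08 RPKM in the mutant. The follistatin gene Fst was at 4.34 and 4.16 RPKM, giving a ratio of 0.960 (0.719 to 1.3). The summed level of all 20 genes of the list was 153 RPKM in the control library and 126 RPKM in the mutant, mostly Sostdc1 and Fstl1. Of the 8 other BMP and GDF ligand genes looked up, none reached 1 RPKM in either library, and they summed to 1.24 and 0.623 RPKM.

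BMP-responsive genes other than Id were mixed, as Id1 to Id4 were. Of 7 tested, 3 were higher in the mutant by 1.5-fold or more and none was 1.5-fold lower, with Tbx3 just short of it at -0.58. Over all genes tested these shares were 2.55% and 3.57%. The median was 0.58 over these 7 genes, -0.0049 over all 10 of the list, and -0.047 among the 5 genes with at least 5 RPKM, so it depended on which genes passed the minimum level. Msx1, the partner of Bmp4 in dental mesenchyme, was at 40.0 and 36.8 RPKM, giving a ratio of 0.921 (0.830 to 1.02), and Dlx5 at 18.9 and 18.2 RPKM. Higher were Runx2, the master regulator of bone formation, at 13.4 and 24.7 RPKM (1.84-fold), and Hey1, a target of Notch and BMP signals, at 3.21 and 6.99 RPKM (2.18-fold, 1.57 to 3.11). Dlx3, a homeobox gene of teeth and bone, was at 0.332 RPKM on about 5 reads and 1.57 RPKM. Tbx3, a T-box factor, was at 10.6 and 6.70 RPKM, giving a ratio of 0.635 (0.558 to 0.726), while its relative Tbx2 was at 1.52 and 2.76 RPKM, giving a ratio of 1.81 (1.24 to 2.75).

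Of 11 bHLH genes listed as partners of Id proteins, 5 were tested, and these were near equal with 1 exception. The other 6 stayed below 1 RPKM in both libraries, with Hand1 and Tcf21 listed at 0 in both. Tcf12 was at 30.2 and 26.5 RPKM, Tcf3 at 19.0 and 18.3 RPKM, and Tcf4 at 14.1 and 14.9 RPKM; these encode the E proteins that Id proteins bind directly. Twist1, a bHLH factor of mesenchyme, was at 21.7 and 22 RPKM. Its relative Twist2 was at 1.62 RPKM on about 11 reads and 4.51 RPKM, 2.79-fold higher (1.54 to 5.60), and was the only one of the 5 tested past 1.5-fold and 2-fold. The median was 0.02. Tcf3 and Tcf4 have several transcript rows, and with only the highest row of each their log2 ratios were 1.04 and 0.47, against -0.05 and 0.08 with rows summed.

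**Figure D4:**
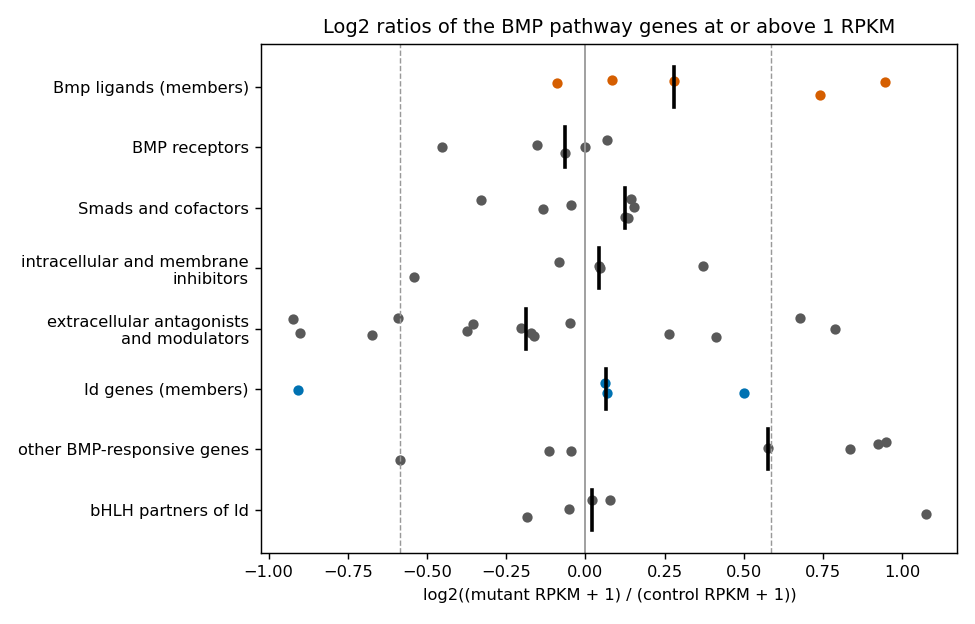
Log2 of mutant RPKM + 1 over control RPKM + 1 (x axis) of the genes tested in each BMP pathway list (y axis), with the list median as a black bar and dashed lines at 1.5-fold. Receptors, Smads, bHLH partners other than Twist2 and intracellular inhibitors lie within the dashed lines, while some ligands, extracellular antagonists, Id4 and other responsive genes lie beyond them.

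Markers of other cell types differed between the libraries beside the members. Dental mesenchyme markers were present in both libraries, as the tissue label states, and summed to 381 RPKM in the control library and 303 RPKM in the mutant. All 10 were tested, 6 with an interval below 1, against 15.9% of all genes. Dental epithelium makes Bmp2, Bmp7 and Id genes too, and its markers summed to 43.4 and 61.2 RPKM. All 10 epithelial markers tested of 18 were above 0, against 4156 of 9779 genes, and the median was 0.41. The interval lay above 1 for 6, against 7.84% of all genes. Trp63 was left out for its status. Shh, Fgf4 and Wnt10b were listed at 0 in the control, and Edar and Fgf4 in the mutant, and none of these was tested. Shh and Wnt10b were at 0.175 and 0.0577 RPKM in the mutant, on about 16 and 4 reads. Krt17, the epithelial keratin furthest apart, was at 1.48 and 4.63 RPKM, and Krt5, the highest, at 13.9 and 16.3 RPKM.

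Osteoblasts make Bmp2, Bmp3 and Id4, and osteoblast markers summed to 18.5 RPKM in the control library and 50.5 RPKM in the mutant. Runx2, also counted among the BMP-responsive genes, made up 13.4 and 24.7 RPKM of these sums. Its log2 ratio was 0.83 with its rows summed and 0.60 from its highest row alone. Of 6 osteoblast markers tested of 8, 5 had an interval above 1, against 7.84% of all genes, and 1, Phex, below 1. The median was 1.15. Ifitm5, Bglap and Spp1 were listed at 0 in the control. In the mutant they were at 1.12, 0.147 and 0.0992 RPKM, on about 27, 2 and 5 reads. Bglap and Spp1 were below the minimum and not tested, and a 0 in the shallower control does not show a difference for them. Ibsp, bone sialoprotein, was at 0.459 RPKM on about 5 reads and 13.0 RPKM. Sp7, a transcription factor of osteoblasts, was at 0.607 and 3.84 RPKM. The part of epithelial and bone-forming cells in the Bmp2, Bmp3 and Id4 values was not tested. Id4 was lower in the mutant, as Phex was, at 1.78 and 1.05 RPKM, while the other 5 osteoblast markers tested were higher.

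Among the other lists shown, macrophage sums were nearly equal and the rest differed. Erythroid markers, mostly globins, summed to 1162 and 926 RPKM, with 6 of 8 tested below 1 by interval, against 15.9% of all genes. The most abundant globin, Hbb-y, had about 1878 control reads, so that a ratio of 0.767 had an interval of 0.730 to 0.807. Macrophage markers summed to 5.40 and 5.47 RPKM and pericyte and smooth muscle markers to 12.9 and 8.18 RPKM. Of 3 pericyte and smooth muscle markers tested, 2 had an interval below 1, against 15.9% of all genes. At least 1.5-fold lower was 1 of them, against 3.57% of all genes. Cartilage markers summed to 8.47 and 13.6 RPKM, with Acan and Matn1 listed at 0 in the control library and Matn1 in the mutant. Acan was at 0.00956 RPKM in the mutant, on about 2 reads, and neither gene was tested. Of genes of nerve cells, Nefl, a neurofilament gene, was at 2.03 and 4.43 RPKM, 2.19-fold higher (1.42 to 3.55), and Elavl4 at 0.280 and 0.332 RPKM. Sox10, of neural crest and glia, was at 0.178 and 0.167 RPKM. The part of neural cells in the Id4 value was not tested.

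**Figure D5:**
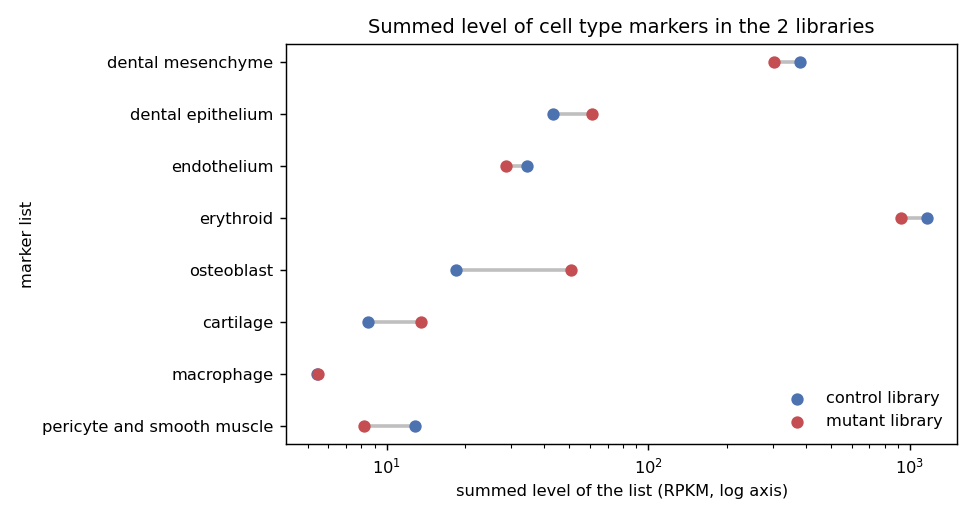
Summed level in RPKM (x axis, log scale) of 8 cell type marker lists (y axis) in the control library (blue) and the mutant library (red). Epithelial, osteoblast and cartilage sums lie higher in the mutant, and mesenchymal, endothelial, erythroid and pericyte sums lie lower.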

How the data were processed

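RNA from 2 libraries of lower molar mesenchyme was extracted with the RNeasy micro kit and made into cDNA with the NuGEN Ovation RNA-Seq v2 kit, per the labels. TopHat 1.4.1, Bowtie 0.12.7 and mm9 come from the submitters' processing notes; no Cufflinks version is given in these sources. RPKM and coverage, the unscaled mean number of reads over each base (a signal), were deposited by the authors per transcript. RPKM was used as deposited. The files name 1 lane per library.

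Rows whose quantification had failed or had too many reads in a library (54, by their status) were left out and the rest summed per gene symbol. The log2 ratio used a pseudocount of 1 and genes that reached 1 RPKM in either library (9779 of 22054). The step taken as 1 read, 44.3 bases, was the median of low values of coverage times length between 20 and 66 bases. The chosen window bounds this step. Approximate reads were coverage times length over the step, so they are estimates. They gave exact Poisson intervals of levels and Clopper-Pearson intervals of ratios at 95%, for counting error only, since amplified reads are not independent molecules. Genes with several rows have an interval from summed reads. With 1 library per genotype no test was made. The intervals and calls were checked on simulated data with independent reads, which cannot show how they hold for amplified reads. Locus starts are counted from 1 in mm9. Alternatives were pseudocount, minimum level, scaling, centring, highest row per gene, status and read length. Python 3.11.15, numpy 2.4.6, pandas 2.3.3, scipy 1.17.1 and matplotlib 3.10.9 were used. The members and gene lists were chosen with earlier results of these data known. Named were all members, Osr2, pathway genes with at least 1 RPKM in a library, and of each marker list up to 4 with the highest mean and 4 with the largest log2 ratio; genes outside this rule are named for being at 0, overlapping or sharing sequence with a member, or sex-linked. The summed level of 1 marker list is not reported here.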

Additional observations from a re-analysis of the deposited data

How the results depend on the processing

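Bmp2 stayed at least 1.5-fold higher in the mutant under all 7 alternatives to the log2 ratio; Bmp3 and Id4 stayed past 1.5-fold except with a minimum of 5 RPKM, where neither was tested. That minimum left 1 member 1.5-fold higher and 0 lower, and moved the median of other BMP-responsive genes to -0.047. A pseudocount of 0.1 put 1 member 2-fold higher and 1 member 2-fold lower, and brought Id1 past 1.5-fold. With no minimum the BMP-responsive median was -0.0049. Scaling each library to the same sum (TPM scale) also let more genes pass the minimum, 13999 against 9779 and 10 members against 9. There, 5 members were 1.5-fold higher and 3 were 2-fold higher, Bmp5 among both, and 1 was 2-fold lower. Bmp5 was not tested before and rests on 0 control reads and about 10 mutant reads. Its ratio interval starts at 0.335 and has no upper bound, so a difference of Bmp5 was still not detectable. The medians were 0.80 for 6 Bmp ligands, 0.14 for 10 BMP-responsive genes and 0.19 for 8 bHLH partners, in place of 5, 7 and 5 genes. Bmp6 turned from -0.09 to 0.03. The pseudocount and the minimum stayed at 1 in the new unit, which is smaller than 1 RPKM. Scale, pseudocount and gene set therefore changed together, and the added calls cannot be put down to scaling alone. With the highest row per gene, the medians were -0.13 for Smads and 0.47 for bHLH partners. Taking 1 read as 36 or 100 bases left 2 members with an interval above 1 and 1 below.

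Over all genes, 249 were 1.5-fold higher and 349 lower. These counts were 556 and 832 with the pseudocount of 0.1, 2010 and 1334 of 13999 on the TPM scale, 355 and 688 with the highest row, and 68 and 107 with the 5 RPKM minimum. At 2-fold, 87 and 78 became 197 and 244, 975 and 595, 151 and 270, and 24 and 26. The TPM scale, with its smaller pseudocount and larger gene set, moved the median of all genes from -0.05 to 0.08. The cause of these shifts was not tested, beyond fewer or more genes passing the minimum. The few control reads limit Id1, Bmp7 and Bmp5 most. No paired analysis was possible because each genotype has 1 library.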
